A study of Homo sapiens with 23 samples.

Results

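The response of HCT116 cells to loss of MLL4 was compared with their response to loss of BAP1, gene by gene, as the difference (MLL4 KO minus WT) minus (BAP1 KO minus control). HCT116 is a human colorectal cancer cell line. The difference uses every RNA-seq library of the series, which is 8 of its 23 samples, with 2 libraries in each of 4 groups. The other 15 samples are ChIP-seq and were not analysed here. A gene was counted as answering the knockouts unequally when its difference passed an adjusted p of 0.05, and 2703 of 16828 tested genes did so, which is 16.1%.

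The groups are WT cells, cells labelled MLL4 KO, cells labelled control and cells labelled BAP1 KO. The genotype given for WT and for control is the same, wild type, and all 4 groups were grown in the same serum-supplemented medium. The names of the deposited tables for control and BAP1 KO carry osTir1, a plant hormone receptor that serves to degrade tagged proteins, and the names for WT and MLL4 KO do not. They also say that STAR alignments were counted over exons, which the other names leave unsaid. Each knockout was therefore set against the unedited cells that share its naming. No source used here says how the knockouts were made, whether a library stands for 1 clone or whether replicates were separate cultures, so p-values measure only the spread between these libraries.

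MLL4, the product of KMT2D, is a histone methyltransferase that places H3K4me1 at enhancers and works in a large complex with PAXIP1, KDM6A and other subunits. BAP1 is a nuclear deubiquitinase that works with ASXL proteins, HCFC1 and OGT and removes the ubiquitin that polycomb repressive complexes place on histone H2A. Both proteins are recurrently mutated in human cancers, and the subtraction of their effects sorts genes called in one knockout from genes that moved in opposite ways.

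The difference of the effects was not called for the messenger RNA of either targeted gene. KMT2D stood at 309 and 371 CPM (WT), 279.7 and 406 CPM (MLL4 KO), 239.5 and 259 CPM (control) and 267 and 228 CPM (BAP1 KO), and its difference was 0.024 ± 0.26 (SE, adjusted p = 0.96). BAP1 stood at 77.9 and 92.1 CPM (WT), 73.2 and 69.8 CPM (MLL4 KO), 56.7 and 62.1 CPM (control) and 67.4 and 57.4 CPM (BAP1 KO), with a difference of -0.32 ± 0.19 (SE, adjusted p = 0.277). Reads can remain after a small deletion, so the messenger RNA leaves the labels unchecked, and each direction below is that of the libraries as labelled.

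Counts over genes came to 24.8 to 42.2 M per library (M, 1e6 counts). Replicates lay closest in control, with a median absolute log2 difference of 0.0953 between libraries, against 0.188 in BAP1 KO, 0.22 in MLL4 KO and 0.287 in WT. The 2 WT libraries also differed from each other, and from the other 6, in sex-linked genes, which are not described. The part of this in the MLL4 KO effects and the differences was not tested, and the fits without 1 library include those without each WT library. Levels are given as CPM, counts per 1e6 counts after TMM scaling. Of 11 colorectal epithelial markers 9 passed the filter on low counts, LGALS4 and CEACAM5 being near 0, and their summed level ran from 2930 CPM in a BAP1 KO library to 5742 CPM in a control library. Immune markers summed to 28.0 and 29.0 CPM (control) and to between 5.00 and 10.1 CPM in the other 6 libraries. CD68 carried most of that sum, while CD3E, MS4A1 and FCGR3A were at 0 in all 8. Endothelial markers summed to 0.938 to 2.42 CPM and fibroblast markers to 25.7 to 55.2 CPM, with DCN and LUM at 0 in all 8.

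The MLL4 KO effect was called in 3212 genes (19.1%), higher in 1534 (9.12%), and the BAP1 KO effect in 3777 (22.4%), lower in 1743 (10.4%). Among the 2703 genes with a called difference, 1303 had a higher value in the MLL4 comparison (7.74% of tested genes) and 1400 a lower one (8.32%). Genes called in opposite directions numbered 336 (2.0%): 125 rose in MLL4 KO and fell in BAP1 KO (0.743%), and 211 fell in MLL4 KO and rose in BAP1 KO (1.25%). A further 728 genes were called in MLL4 KO only (4.33%), 388 higher (2.31%) and 340 lower (2.02%), and 1294 in BAP1 KO only (7.69%), 680 higher (4.04%) and 614 lower (3.65%). Both effects were called in the same direction but with unequal size in 41 genes that rose (0.244%) and 31 that fell (0.184%). The remaining 273 (1.62%) had a called difference and neither effect called.

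A missed threshold does not show that a gene stayed still. Of the 728 MLL4-only genes, 163 higher and 174 lower (337) had a BAP1 KO log2 fold change under 0.25 in size, and of the 1294 BAP1-only genes, 342 higher and 292 lower (634) had an MLL4 KO change under 0.25. With a limit of 0.5 the sets held 289 higher and 293 lower MLL4-only genes and 587 higher and 456 lower BAP1-only genes. The 337 ranged from 13 without control replicate 2 to 1160 without WT replicate 1, and the 634 from 116 without control replicate 2 to 675 without WT replicate 2. The edge of the threshold was read with unnamed, antisense, LINC, small RNA, readthrough and sex-linked genes passed over. The weakest call was then ELAPOR2, with a difference of 0.88 ± 0.26 (SE, adjusted p = 0.0499). The first gene outside, MMP28, had 1.93 ± 0.58 (SE, adjusted p = 0.0501).

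Counts of called genes depended on single libraries. The 3212 MLL4 KO calls became 5290 and 663 without WT replicate 1 or 2, 530 without MLL4 KO replicate 2, 1077 and 1068 without control replicate 1 or 2 and 2137 and 2136 without BAP1 KO replicate 1 or 2. The 3777 BAP1 KO calls became 1164 and 1076 without control replicate 1 or 2 and 1346 and 2382 without BAP1 KO replicate 1 or 2. The 2703 differences became 4419 without WT replicate 1, 1590 when MLL4 KO replicate 2 was left out, 726 and 680 without control replicate 1 or 2, and 882 and 1758 without BAP1 KO replicate 1 or 2.

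The counts of the sets moved as well. Genes up in MLL4 KO and down in BAP1 KO numbered 263 and 57 without WT replicate 1 or 2, 207 and 48 without MLL4 KO replicate 1 or 2, 29 and 25 without control replicate 1 or 2 and 46 without BAP1 KO replicate 1. Genes of the reverse pattern numbered 402 and 41 without WT replicate 1 or 2, 22 without MLL4 KO replicate 2, 29 and 33 without control replicate 1 or 2 and 67 and 107 without BAP1 KO replicate 1 or 2. The MLL4-only count of 728 became 1790 and 175 without WT replicate 1 or 2, 153 without MLL4 KO replicate 2, 151 and 147 without control replicate 1 or 2 and 253 and 378 without BAP1 KO replicate 1 or 2. The BAP1-only count of 1294 became 399 and 367 without control replicate 1 or 2 and 415 without BAP1 KO replicate 1. With upper-quartile scaling, 1594 of 2673 called differences (59.6%) were higher, against 48.2% with TMM, and the median of all genes moved from -0.017 to 0.089 on the log2 scale.

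**Figure D1:**
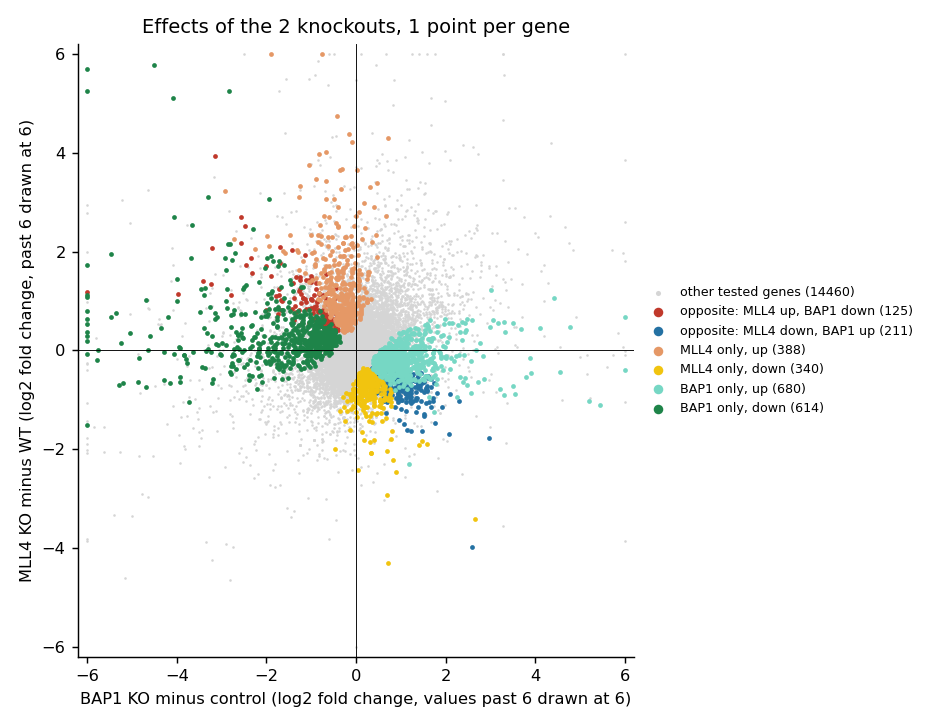
Each point is 1 tested gene, placed by its log2 fold change in BAP1 KO against control (horizontal) and in MLL4 KO against WT (vertical), and coloured by its set. Opposite genes lie in the upper left (125) and lower right (211).

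The sets differed in where the unedited cells stood. Genes that rose in MLL4 KO and fell in BAP1 KO were already higher in control than in WT, with medians over genes of 5.65 and 4.56 log2 CPM, and 110 of the 125 were at least 0.5 log2 units higher. The reverse set began far lower in control, at 4.15 against 6.10 log2 CPM in WT, and 188 of 211 were at least 0.5 lower. After knockout the medians were closer: 5.34 in MLL4 KO and 4.70 in BAP1 KO for the first set, and 5.44 and 5.20 for the second. Across all tested genes the medians were 4.26 in WT and 4.28 in control, 4.27 in MLL4 KO and 4.31 in BAP1 KO.

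Among genes of 1 knockout, the control median began above WT in the sets higher in MLL4 KO only and lower in BAP1 KO only. It began below WT in the sets lower in MLL4 KO only and higher in BAP1 KO only. In the sets lower in MLL4 KO only and lower in BAP1 KO only, the median of that knockout ended below both unedited medians. Genes higher in MLL4 KO only began at 3.85 log2 CPM in WT and 5.15 in control, and stood at 4.85 in MLL4 KO and 4.86 in BAP1 KO. Genes lower in MLL4 KO only began at 5.75 in WT and 5.02 in control and ended at 4.98 and 5.20. Genes higher in BAP1 KO only began at 4.37 in control and 5.39 in WT, and reached 5.35 in BAP1 KO beside 5.26 in MLL4 KO. Genes lower in BAP1 KO only began at 4.95 in control and 4.09 in WT and fell below both, to 3.69, beside 4.23 in MLL4 KO.

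Each set spanned a wide range of levels. In WT the set up in MLL4 KO and down in BAP1 KO ran from -3.16 to 10.79 log2 CPM and the reverse set from -0.75 to 11.20, against -4.02 to 13.28 for all tested genes. Few opposite genes began at a like level: 12 of 125 (9.6%) and 21 of 211 (9.95%) lay within 0.5 log2 units in WT and control, where 50.1% of all tested genes did. For MLL4-only genes the share was 11.6% of those higher and 25.9% of those lower, and for BAP1-only genes 24.0% and 22.5%. The knockout libraries lay closer to each other than the unedited libraries did in 67.2% and 85.3% of the opposite sets, 80.2% and 72.4% of the MLL4-only sets and 72.5% and 63.5% of the BAP1-only sets, each given up first, against 61.5% of all genes.

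These levels are a description and carry no test. The difference of the effects is, by arithmetic, control minus WT plus MLL4 KO minus BAP1 KO, so the starting level is part of the value that chose the genes. The line named for osTir1, the wording of the table names and any difference in handling all separate control from WT and cannot be told apart.

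**Figure D2:**
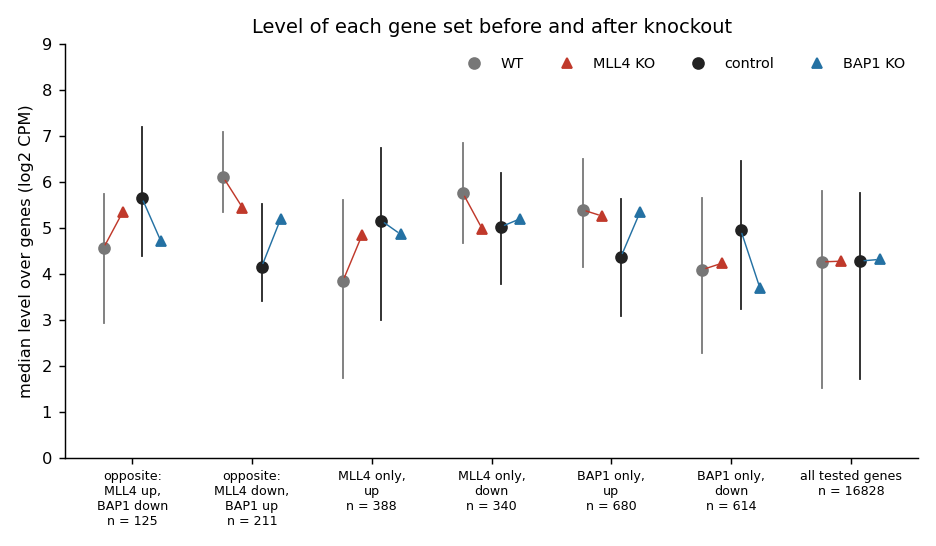
Median level over the genes of each set in log2 CPM, for WT (grey) and control (black) as circles with lines from the lower to the upper quartile over genes, and for MLL4 KO (red) and BAP1 KO (blue) as triangles joined to their own unedited group. In the opposite sets the circles lie apart (4.56 and 5.65, 6.10 and 4.15) and the triangles lie between them.

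The set that fell in MLL4 KO and rose in BAP1 KO held many genes of cell division. The kinetochore is the protein assembly that ties chromosomes to the spindle. Of 47 genes of mitosis and the kinetochore, 45 had a lower difference and 1 a higher one. Over all tested genes the shares were 8.32% and 7.74%. The median of the list was -2.06 on the log2 scale against -0.017 over all genes. In this list 27 genes fell in MLL4 KO and rose in BAP1 KO, beside 1.25% of all tested genes. A further 17 rose in BAP1 KO only, beside 4.04%. In MLL4 KO only, 1 each rose and fell, beside 2.31% and 2.02%. The median over the list stood at 6.44 and 6.73 log2 CPM (WT), 6.13 and 6.05 (MLL4 KO), 3.92 and 4.04 (control) and 5.61 and 5.15 (BAP1 KO). The 4 groups did not overlap: control was lowest, and BAP1 KO stayed below MLL4 KO. Leaving out 1 library at a time left 40 to 45 members with a lower difference.

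Genes of DNA replication and the step from G1 into S phase showed the same order. Of 46 genes, 45 had a lower difference, beside 8.32% of all tested genes, and 1 was not called, with a median of -1.54. A fall in MLL4 KO with a rise in BAP1 KO was called in 20, a rise in BAP1 KO only in 16 and a fall in MLL4 KO only in 7. Over all tested genes these shares were 1.25%, 4.04% and 2.02%. The list medians were 6.08 and 6.49 log2 CPM (WT), 5.80 and 5.45 (MLL4 KO), 4.59 and 4.60 (control) and 5.16 and 5.11 (BAP1 KO). The 45 became 29 without BAP1 KO replicate 1, and 25 and 27 when control replicate 1 or 2 was left out. The members and lists were drawn up with results of these libraries known, so these counts describe the lists and are not independent evidence.

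SGO2 (shugoshin, which guards cohesin at centromeres; chromosome 2, 200526142 to 200584096, hg38) stood at 40.1 and 53.7 CPM (WT), 18.0 and 12.2 CPM (MLL4 KO), 7.25 and 8.72 CPM (control) and 25.7 and 19.1 CPM (BAP1 KO). WT was highest and control lowest, with both knockouts between them. It fell in MLL4 KO, -1.63 ± 0.24 (SE, adjusted p = 0.00713) on the log2 scale by edgeR, and rose in BAP1 KO, 1.48 ± 0.25 (SE, adjusted p = 0.00344). The difference was -3.11 ± 0.34 (SE, adjusted p = 0.0011), and all 3 calls passed without any 1 of the 8 libraries.

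CENPF, a kinetochore protein of dividing cells, stood at 314 and 333 CPM (WT), 172 and 145 CPM (MLL4 KO), 50.9 and 50.7 CPM (control) and 197 and 138 CPM (BAP1 KO). Its effects were -1.03 ± 0.17 (SE, adjusted p = 0.00999) in MLL4 KO and 1.72 ± 0.17 (SE, adjusted p = 0.000324) in BAP1 KO. ANLN, the actin-binding scaffold of the cleavage furrow, stood at 197 and 267 CPM (WT), 118 and 106 CPM (MLL4 KO), 26.7 and 27.9 CPM (control) and 97.2 and 70.6 CPM (BAP1 KO). Its effects were -1.05 ± 0.18 (SE, adjusted p = 0.0109) and 1.62 ± 0.19 (SE, adjusted p = 0.000615). E2F8, an E2F family repressor that acts in S phase, went from 35.5 and 45.8 CPM (WT) to 21.2 and 19.6 CPM (MLL4 KO) and from 6.42 and 5.36 CPM (control) to 15.5 and 13.9 CPM (BAP1 KO), a difference of -2.32 ± 0.25 (SE, adjusted p = 0.00109). In these 3 genes WT lay above, and control below, all 4 knockout libraries. Without MLL4 KO replicate 2 the MLL4 KO call was missed in CENPF (adjusted p = 0.0575), ANLN (0.0662) and E2F8 (0.0551), and their differences passed without any 1 library.

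CLSPN, which carries the replication checkpoint signal to its kinase, stood at 85.3 and 122 CPM (WT), 50.2 and 32.3 CPM (MLL4 KO), 12.3 and 12.9 CPM (control) and 42.1 and 30.2 CPM (BAP1 KO), with a difference of -2.84 ± 0.37 (SE, adjusted p = 0.00283). Its MLL4 KO call was missed without WT replicate 2 (adjusted p = 0.0791) or MLL4 KO replicate 2 (0.0675), and its BAP1 KO call without control replicate 1 (0.0536) or 2 (0.0543). CENPE, the kinetochore motor, stood at 57.3 and 61.1 CPM (WT), 27.4 and 21.1 CPM (MLL4 KO), 9.79 and 13.5 CPM (control) and 42.2 and 25.4 CPM (BAP1 KO), with a difference of -2.81 ± 0.36 (SE, adjusted p = 0.00249). Its MLL4 KO call was missed without WT replicate 2 (adjusted p = 0.0819) or MLL4 KO replicate 2 (0.0879). Differences of both genes passed without any 1 library.

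The sequences before the start sites of these genes were read for letters that are known from cell cycle promoters. Promoters of 12763 of the 16828 tested genes were matched by symbol in a RefSeq table (GRCh38.p14, from 250 bases before to 50 bases after the start site). On both strands they were searched for the cell cycle homology region (CHR, TTTGAA), the CCAAT box (CCAAT), E2F letters (TTTGGCGC, TTTCGCGC, TTTCCCGC or TTTGCCGC), the amino acid response element of ATF4 and its partners (CARE, TGATGNAA) and TATAAA. No searched motif contains another.

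TTTGAA was found in 49 of 177 promoters (27.7%) of the set that fell in MLL4 KO and rose in BAP1 KO, against 10.0% of all. The set also held CCAAT in 53.7% against 36.2%, E2F letters in 18.1% against 5.12% and TATAAA in 5.08% against 6.35%. In the reverse set the shares were 9.78% for TTTGAA, 29.3% for CCAAT and 4.35% for E2F letters. BAP1-only genes that rose held TTTGAA in 16.3%, CCAAT in 45.4% and E2F letters in 8.89%, while MLL4-only genes that fell held 15.6%, 39.5% and 8.84%. The lists divided the motifs: of 39 mitosis promoters 64.1% held TTTGAA and 5.13% E2F letters, and of 40 replication promoters 2.5% held TTTGAA and 55.0% E2F letters. A match of letters is a description of the window and not a binding site.

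Promoters of 5 division genes that hold searched letters are shown, though no motif is common to all 5. Each is given as the 150 bases before the start site, 5′ to 3′ on the strand of the gene, with any searched motif in capitals. Those 150 bases held no searched motif in SGO2, CENPE or CENPI, which also moved in opposite directions. ANLN, CENPF and CLSPN moved in opposite directions, KIF18A rose in BAP1 KO only and CDC25A fell in MLL4 KO only.
ANLN (chr7:36389712-36389861, plus strand): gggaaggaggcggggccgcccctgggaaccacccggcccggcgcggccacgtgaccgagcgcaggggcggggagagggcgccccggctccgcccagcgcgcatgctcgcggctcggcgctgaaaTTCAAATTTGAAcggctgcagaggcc
KIF18A (chr11:28108157-28108306, minus strand): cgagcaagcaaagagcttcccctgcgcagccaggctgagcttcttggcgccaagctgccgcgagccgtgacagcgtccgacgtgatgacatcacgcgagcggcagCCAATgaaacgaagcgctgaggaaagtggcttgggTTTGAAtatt
CENPF (chr1:214603045-214603194, plus strand): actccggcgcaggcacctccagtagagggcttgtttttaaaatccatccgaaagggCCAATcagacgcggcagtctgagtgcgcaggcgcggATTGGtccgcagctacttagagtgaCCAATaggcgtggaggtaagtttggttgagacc
CLSPN (chr1:35769979-35770128, minus strand): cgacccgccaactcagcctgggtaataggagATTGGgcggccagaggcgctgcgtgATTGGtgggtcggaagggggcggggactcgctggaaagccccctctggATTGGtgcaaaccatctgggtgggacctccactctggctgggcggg
CDC25A (chr3:48188418-48188567, minus strand): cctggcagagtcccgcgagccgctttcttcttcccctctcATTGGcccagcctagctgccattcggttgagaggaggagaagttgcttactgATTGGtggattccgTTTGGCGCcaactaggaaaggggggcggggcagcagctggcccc
In ANLN a TTTGAA on each strand lies back to back, from 26 and 20 bases before the start. KIF18A holds TTTGAA from base 10 and CCAAT from base 45 before the start. CENPF holds CCAAT on either strand from bases 94, 58 and 33, and CLSPN from bases 119, 94 and 46. CDC25A holds CCAAT from bases 110 and 58 and TTTGGCGC from base 44.

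CDC25A, the phosphatase that activates cyclin-dependent kinases for S phase entry, stood at 53.8 and 80.4 CPM (WT), 31.2 and 18.7 CPM (MLL4 KO), 9.87 and 9.74 CPM (control) and 16.6 and 12.9 CPM (BAP1 KO). It fell in MLL4 KO, -1.42 ± 0.27 (SE, adjusted p = 0.0145), while the BAP1 KO value was 0.59 ± 0.29 (SE, adjusted p = 0.178), and the difference was -2.02 ± 0.39 (SE, adjusted p = 0.0127). The difference was missed without control replicate 1 (adjusted p = 0.0627) or 2 (0.0687) or BAP1 KO replicate 1 (0.0609). The MLL4 KO call was missed without WT replicate 2 (0.0677) or MLL4 KO replicate 2 (0.0579). KIF18A, the kinesin that limits chromosome movement at the spindle, stood at 45.7 and 42.8 CPM (WT), 53.4 and 29.0 CPM (MLL4 KO), 11.5 and 13.6 CPM (control) and 77.3 and 56.4 CPM (BAP1 KO). It rose in BAP1 KO, 2.41 ± 0.29 (SE, adjusted p = 0.00103), and its MLL4 KO value was -0.098 ± 0.27 (SE, adjusted p = 0.821). The MLL4 KO libraries of KIF18A fell on either side of WT, and its difference passed without any 1 library.

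Outside the division lists, the rule for large paired changes took PKIB and AOPEP among others. PKIB, an inhibitor of protein kinase A (chromosome 6, 122471921 to 122726373), stood at 18.6 and 16.7 CPM (WT), 5.21 and 5.03 CPM (MLL4 KO), 35.8 and 31.1 CPM (control) and 196 and 329.6 CPM (BAP1 KO). It fell in MLL4 KO, -1.78 ± 0.25 (SE, adjusted p = 0.00713), rose in BAP1 KO, 2.98 ± 0.23 (SE, adjusted p = 0.000107), and differed by -4.76 ± 0.34 (SE, adjusted p = 0.000259). Here control lay above WT, unlike the set as a whole, and BAP1 KO stood apart from the other 6 libraries. AOPEP, an aminopeptidase (chromosome 9, 94726699 to 95150224), stood at 7.25 and 11.5 CPM (WT), 2.94 and 2.92 CPM (MLL4 KO), 2.31 and 2.85 CPM (control) and 10.7 and 11.3 CPM (BAP1 KO). WT and BAP1 KO overlapped and lay above MLL4 KO and control. Its difference was -3.76 ± 0.37 (SE, adjusted p = 0.000816), and every call of PKIB and AOPEP passed without any 1 library. With the longest transcript row in place of the row with most counts, all 3 AOPEP calls were missed. The difference was then -1.59 (adjusted p = 0.0736), the MLL4 KO effect -1.03 (0.0748) and the BAP1 KO effect 0.55 (0.347).

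Cholesterol synthesis genes shared the direction. Of 34 genes of cholesterol and fatty acid synthesis, 17 had a lower difference, beside 8.32% of all tested genes, and 17 were not called. Those with a lower difference held 4 opposite genes, 5 lower in MLL4 KO only and 5 higher in BAP1 KO only. The 17 became 7 and 8 without BAP1 KO replicate 1 or 2, 10 without MLL4 KO replicate 2 and 6 without either control replicate. HMGCS1, which makes the precursor of mevalonate (chromosome 5, 43287470 to 43313412), stood at 86.8 and 72.0 CPM (WT), 36.5 and 26.6 CPM (MLL4 KO), 39.0 and 40.6 CPM (control) and 47.5 and 45.7 CPM (BAP1 KO). It fell in MLL4 KO, -1.33 ± 0.17 (SE, adjusted p = 0.00479), with a BAP1 KO value of 0.23 ± 0.16 (SE, adjusted p = 0.358) and a difference of -1.56 ± 0.23 (SE, adjusted p = 0.00366), and both calls passed without any 1 library. INSIG1, which retains the sterol sensor in the endoplasmic reticulum, moved in opposite directions, from 74.9 and 50.9 to 35.3 and 25.5 CPM and from 14.1 and 15.7 to 31.8 and 32.7 CPM. Its MLL4 KO call was missed without MLL4 KO replicate 2 (adjusted p = 0.0894) and its BAP1 KO call without control replicate 1 (0.0747) or 2 (0.0547). STARD4, a cytosolic cholesterol carrier, rose in BAP1 KO only, from 16.1 and 16.3 to 48.7 and 38.8 CPM, beside 48.1 and 49.9 CPM (WT) and 48.8 and 38.3 CPM (MLL4 KO). Control was the group that stood apart in STARD4, and its difference of -1.60 ± 0.23 (SE, adjusted p = 0.00303) passed without any 1 library.

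**Figure D3:**
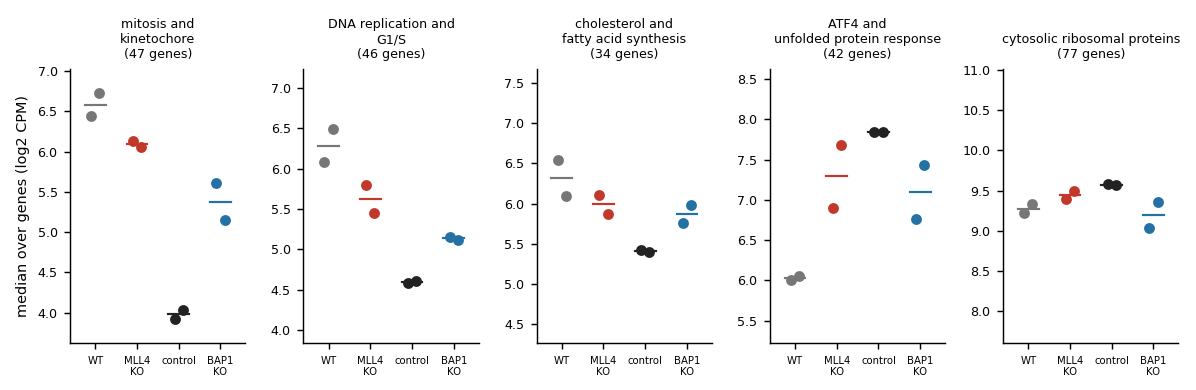
Median over the genes of 5 lists in each library in log2 CPM (points) with the mean of the 2 libraries (bar), on axes of equal span. Control is lowest for the division and cholesterol lists (3.92 and 4.04 for mitosis) and highest for the ATF4 list (7.84 in both), with the mean of each knockout between the unedited groups in these 4 lists.

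Genes that rose in MLL4 KO and fell in BAP1 KO included a cell cycle inhibitor, arrestin and membrane genes and the keratins of simple epithelium. ARRDC4, an alpha-arrestin induced by glucose (chromosome 15, 97960703 to 97973833), stood at 11.2 and 7.38 CPM (WT), 33.8 and 33.7 CPM (MLL4 KO), 232 and 226 CPM (control) and 43.2 and 46.5 CPM (BAP1 KO). Control lay far above WT, and the knockouts lay between them. Its effects were 1.87 ± 0.18 (SE, adjusted p = 0.00245) in MLL4 KO and -2.35 ± 0.17 (SE, adjusted p = 4.9e-05) in BAP1 KO, a difference of 4.22 ± 0.24 (SE, adjusted p = 6.75e-05).

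DYSF (dysferlin, which reseals damaged plasma membrane; chromosome 2, 71453561 to 71686763) stood at 1.24 and 0.563 CPM (WT), 3.87 and 6.30 CPM (MLL4 KO), 23.2 and 19.9 CPM (control) and 3.83 and 3.92 CPM (BAP1 KO). Its effects were 2.52 ± 0.38 (SE, adjusted p = 0.00841) and -2.47 ± 0.28 (SE, adjusted p = 0.000523), and the knockout libraries overlapped. CDKN2B, the inhibitor of the cyclin D kinases CDK4 and CDK6 (chromosome 9, 22002903 to 22009313), stood at 7.37 and 5.50 CPM (WT), 15.8 and 16.9 CPM (MLL4 KO), 89.1 and 90.3 CPM (control) and 7.43 and 11.6 CPM (BAP1 KO). Its effects were 1.35 ± 0.22 (SE, adjusted p = 0.00943) and -3.24 ± 0.22 (SE, adjusted p = 3.65e-05). The kinase gene CDK6 moved the other way, from 116 and 128 to 44.4 and 47.9 CPM and from 47.9 and 51.9 to 121 and 74.8 CPM, a difference of -2.37 ± 0.28 (SE, adjusted p = 0.00155). The BAP1 KO call of CDK6 was missed without control replicate 1 (adjusted p = 0.0864) or 2 (0.0643) or BAP1 KO replicate 1 (0.0559).

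UNC5B, a netrin receptor, stood at 55.3 and 48.2 CPM (WT), 141 and 139 CPM (MLL4 KO), 170.4 and 169 CPM (control) and 97.8 and 74.1 CPM (BAP1 KO), with a difference of 2.42 ± 0.21 (SE, adjusted p = 0.000601). KRT18, the acidic keratin of simple epithelium (chromosome 12, 52948855 to 52952906), stood at 707 and 673 CPM (WT), 1328 and 1454 CPM (MLL4 KO), 1068 and 1066 CPM (control) and 506 and 574 CPM (BAP1 KO). Its effects were of nearly equal size, 1.01 ± 0.12 (SE, adjusted p = 0.00394) and -0.98 ± 0.12 (SE, adjusted p = 0.000787), and no groups overlapped. Its partner KRT8 stood at 1783 and 1758 CPM (WT), 3015 and 2894 CPM (MLL4 KO), 2108 and 2058 CPM (control) and 1228 and 1353 CPM (BAP1 KO), a difference of 1.43 ± 0.17 (SE, adjusted p = 0.00136), and its BAP1 KO call was missed without control replicate 1 (adjusted p = 0.0504). The KRT8 and KRT18 annotations overlap by position and both genes have many processed copies, so reads may be shared. All calls of ARRDC4, DYSF, CDKN2B, UNC5B and KRT18 passed without any 1 library.

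In the further genes of large paired change, named by the same rule as ARRDC4 and DYSF, the MLL4 KO call was less stable. ABO lost it with DESeq2 (log2 fold change 2.08, adjusted p = 0.194), as it did its BAP1 KO call (-2.65, adjusted p = 0.0911). Both calls of ABO were also missed with no filter on low counts and with another dispersion setting. Without either control replicate both were missed, and so was the difference. The MLL4 KO call of ABO was further missed without WT replicate 2 or either MLL4 KO replicate, and its BAP1 KO call without BAP1 KO replicate 2. STC2 lost its MLL4 KO call and its BAP1 KO call without either replicate of WT, MLL4 KO or control, and also with no filter on low counts. Of the fits without 1 library, TMEM154 kept its MLL4 KO call only in that without WT replicate 1. The call was also missed with another dispersion setting, a replicate term and transcript rows summed. The difference of STC2 was also missed without either WT replicate, either control replicate or MLL4 KO replicate 2. The values of NUPR1, PDE2A and GCNT3 follow. NUPR1, a stress-induced chromatin protein, had 1 and 2 counts in WT, 40 and 26 in MLL4 KO, 225 and 341 in control and 10 and 48 in BAP1 KO. The low WT counts limit the precision of its rise, and its MLL4 KO call passed only in the fits without BAP1 KO replicate 1 or 2 (largest adjusted p 0.176 of the other 6, and 0.0521 with limma-voom). PDE2A, a cyclic nucleotide phosphodiesterase, stood at 6.17 and 1.94 CPM (WT), 11.5 and 14.3 CPM (MLL4 KO), 48.4 and 47.3 CPM (control) and 12.8 and 10.8 CPM (BAP1 KO), with a difference of 3.73 ± 0.53 (SE, adjusted p = 0.00455). Its MLL4 KO call was missed without MLL4 KO replicate 2 (adjusted p = 0.116), control replicate 1 (0.0604) or control replicate 2 (0.0587). GCNT3, a mucin-type glycosyltransferase, stood at 1.43 and 1.47 CPM (WT), 3.41 and 5.27 CPM (MLL4 KO), 22.4 and 19.3 CPM (control) and 2.62 and 5.77 CPM (BAP1 KO), and its difference of 3.88 ± 0.52 (SE, adjusted p = 0.00253) passed without any 1 library. Its MLL4 KO call was missed without WT replicate 1 (0.0683) or 2 (0.155), MLL4 KO replicate 2 (0.152) and control replicate 1 (0.0634) or 2 (0.0638), and also with limma-voom (0.0546) and with transcript rows summed (0.054).

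A small number of opposite genes began at a like level in WT and control. Of the 33 within 0.5 log2 units, 3 kept both effects and the difference without any 1 library: CYP4F11, F3 and MPRIP. F3 and MPRIP fall outside the rule for named genes and were chosen after their values were seen, as was MAGI1. CYP4F11, a cytochrome P450 that hydroxylates fatty acids (chromosome 19, 15912377 to 15934867), stood at 22.3 and 25.8 CPM (WT), 50.2 and 55.4 CPM (MLL4 KO), 24.2 and 24.6 CPM (control) and 1.15 and 1.99 CPM (BAP1 KO). WT and control overlapped, MLL4 KO lay above both and BAP1 KO below. Its effects were 1.13 ± 0.17 (SE, adjusted p = 0.00822) and -3.97 ± 0.23 (SE, adjusted p = 1.63e-05), a difference of 5.10 ± 0.29 (SE, adjusted p = 6.75e-05). Reads of close paralogs in the CYP4F cluster may be shared with it.

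F3, tissue factor, which starts blood coagulation, stood at 29.9 and 30.7 CPM (WT), 64.9 and 66.2 CPM (MLL4 KO), 24.1 and 26.0 CPM (control) and 12.8 and 13.4 CPM (BAP1 KO). It rose by 1.11 ± 0.12 (SE, adjusted p = 0.00318) in MLL4 KO and its BAP1 KO effect was -0.93 ± 0.13 (SE, adjusted p = 0.0012). MPRIP, which targets myosin phosphatase to actin filaments, stood at 309.6 and 370.4 CPM (WT), 610.4 and 597 CPM (MLL4 KO), 461 and 469 CPM (control) and 241 and 243 CPM (BAP1 KO), with effects of 0.83 ± 0.12 (SE, adjusted p = 0.00738) and -0.94 ± 0.12 (SE, adjusted p = 0.00101). The replicates of both genes lay closer together than the groups did.

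MAGI1, a scaffold protein of tight junctions, stood at 76.7 and 69.8 CPM (WT), 30.2 and 49.2 CPM (MLL4 KO), 60.9 and 65.6 CPM (control) and 265 and 281 CPM (BAP1 KO). Its effects were -0.89 ± 0.20 (SE, adjusted p = 0.0207) and 2.11 ± 0.20 (SE, adjusted p = 0.000262), and its MLL4 KO call was missed in 2 fits, without WT replicate 2 and without control replicate 1 (largest adjusted p 0.0788). SAMD9, an interferon-induced antiviral factor, stood at 10.7 and 16.9 CPM (WT), 6.22 and 5.42 CPM (MLL4 KO), 18.3 and 16.7 CPM (control) and 47.8 and 40.0 CPM (BAP1 KO), with effects of -1.25 ± 0.23 (SE, adjusted p = 0.0121) and 1.33 ± 0.21 (SE, adjusted p = 0.00248). The MLL4 KO call of SAMD9 was missed without MLL4 KO replicate 2 (adjusted p = 0.0684). In both genes BAP1 KO lay above, and MLL4 KO below, all 4 unedited libraries.

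**Figure D4:**
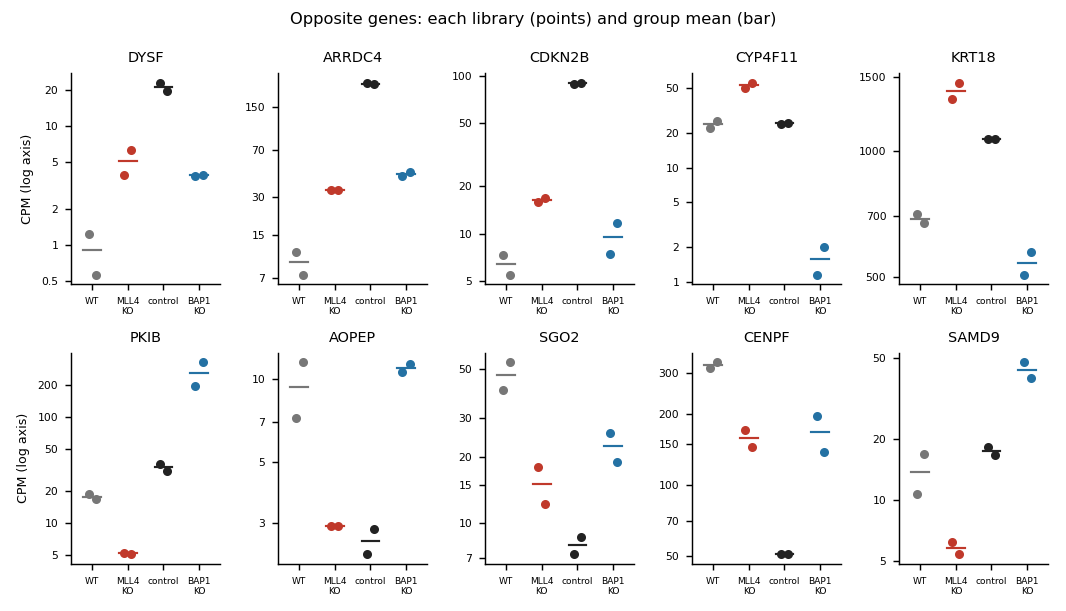
CPM on a log axis in each library (points) with the group mean (bar) for 10 opposite genes. In ARRDC4 and CDKN2B the knockouts lie between WT and control (9.29 and 229 CPM on average for ARRDC4), whereas CYP4F11 starts from 24.0 and 24.4 CPM and splits.

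The genes called in MLL4 KO only and higher there held many targets of ATF4, the transcription factor of amino acid shortage and endoplasmic reticulum stress. Of 42 genes of the ATF4 and unfolded protein response list, 33 had a higher difference, beside 7.74% of all tested genes, and 9 were not called. The median difference was 1.71. Of the 33, 19 rose in MLL4 KO only and 6 fell in BAP1 KO only. Another 4 rose in MLL4 KO and fell in BAP1 KO, and 4 had neither effect called. Over all tested genes these shares were 2.31%, 3.65%, 0.743% and 1.62%. The list median stood at 6.01 and 6.05 log2 CPM (WT), 6.90 and 7.68 (MLL4 KO), 7.84 and 7.84 (control) and 6.76 and 7.44 (BAP1 KO). WT was lowest, and the knockouts overlapped each other. The 33 became 18 without BAP1 KO replicate 1 and 12 without either control replicate. In the promoters of the list the letters TGATGNAA were found in 22.2% of 36, against 1.78% of all, and CCAAT in 72.2% against 36.2%. The list was drawn up around ATF4, so these shares describe the list and not the set. Of the 297 promoters of genes higher in MLL4 KO only, 3.37% held TGATGNAA and 37.0% CCAAT. The shares for genes lower in BAP1 KO only were 3.38% and 34.2%.

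DDIT3, the stress transcription factor CHOP (chromosome 12, 57516588 to 57520517), stood at 10.5 and 18.6 CPM (WT), 90.9 and 155 CPM (MLL4 KO), 142 and 138 CPM (control) and 72.0 and 128 CPM (BAP1 KO). It rose in MLL4 KO, 3.07 ± 0.41 (SE, adjusted p = 0.0101), while its BAP1 KO value was -0.48 ± 0.37 (SE, adjusted p = 0.402), and its calls passed without any 1 library. CHAC1, which degrades glutathione, stood at 4.46 and 5.22 CPM (WT), 59.3 and 48.6 CPM (MLL4 KO), 97.2 and 97.5 CPM (control) and 28.7 and 76.7 CPM (BAP1 KO), with a difference of 4.36 ± 0.61 (SE, adjusted p = 0.00635). Its MLL4 KO call was missed without WT replicate 2 (adjusted p = 0.0747). In DDIT3 and CHAC1 all WT libraries lay below every other library.

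Amino acid transporters followed. Of 18, 12 had a higher difference, beside 7.74% of all tested genes, and 6 were not called. Of the 12, 4 were called in MLL4 KO only, 3 in BAP1 KO only and 3 were opposite. The 12 became 5 without BAP1 KO replicate 1, and 6 and 5 when control replicate 1 or 2 was left out. SLC1A4, a neutral amino acid transporter (chromosome 2, 64988479 to 65023865), stood at 6.98 and 5.78 CPM (WT), 25.1 and 47.5 CPM (MLL4 KO), 34.7 and 36.0 CPM (control) and 24.0 and 29.9 CPM (BAP1 KO). Its effects were 2.51 ± 0.30 (SE, adjusted p = 0.00486) and -0.39 ± 0.27 (SE, adjusted p = 0.333), with a difference of 2.90 ± 0.40 (SE, adjusted p = 0.00334). SLC6A9, a glycine transporter, moved in opposite directions, from 6.32 and 6.19 to 16.3 and 20.5 CPM and from 32.9 and 31.8 to 16.8 and 23.9 CPM. Its BAP1 KO call was missed without control replicate 1 (adjusted p = 0.167) or 2 (0.145) or BAP1 KO replicate 1 (0.226).

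Of genes changed in MLL4 KO with little change in BAP1 KO, rises included genes of signalling and hormone response. SHC2, an adaptor of receptor tyrosine kinases (chromosome 19, 416589 to 461033), stood at 0.853 and 0.594 CPM (WT), 4.69 and 6.75 CPM (MLL4 KO), 10.9 and 12.7 CPM (control) and 14.0 and 13.0 CPM (BAP1 KO). It rose in MLL4 KO, 2.99 ± 0.32 (SE, adjusted p = 0.00318), and its BAP1 KO value was 0.19 ± 0.21 (SE, adjusted p = 0.562). Control and BAP1 KO lay close together and above MLL4 KO. TSC22D3, the glucocorticoid-induced leucine zipper, stood at 6.83 and 5.25 CPM (WT), 29.9 and 36.7 CPM (MLL4 KO), 33.6 and 34.3 CPM (control) and 28.1 and 49.9 CPM (BAP1 KO), with a difference of 2.27 ± 0.37 (SE, adjusted p = 0.00627). The 2 WT libraries lay apart from the other 6, which overlapped.

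ADIRF, adipogenesis regulatory factor (chromosome 10, 86968482 to 86970915), stood at 97.7 and 74.4 CPM (WT), 423 and 425 CPM (MLL4 KO), 172 and 173 CPM (control) and 128 and 163 CPM (BAP1 KO). Here MLL4 KO lay above every other group, including control. Its effects were 2.30 ± 0.17 (SE, adjusted p = 0.000708) and -0.24 ± 0.16 (SE, adjusted p = 0.307). Calls of SHC2, TSC22D3, ADIRF and SLC1A4 passed without any 1 library. Other named genes were less stable. The differences of LRP1B, APOL6 and KLF5, higher in MLL4 KO only, were missed in several fits without 1 library. So were those of THBS1, LIN9, MYB and ZNF480, lower in MLL4 KO only. Genes lower in MLL4 KO only included DNTTIP2, a nucleolar protein, at 75.9 and 96.2 CPM (WT), 35.4 and 28.7 CPM (MLL4 KO), 58.6 and 56.5 CPM (control) and 48.5 and 48.6 CPM (BAP1 KO). Its difference of -1.18 ± 0.21 (SE, adjusted p = 0.00806) was missed without control replicate 2 (adjusted p = 0.058).

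Genes changed in BAP1 KO only included deep falls in genes of signalling, caveolae and adhesion. GDA, guanine deaminase (chromosome 9, 72114608 to 72259869), stood at 52.8 and 59.8 CPM (WT), 45.4 and 67.8 CPM (MLL4 KO), 67.5 and 70.7 CPM (control) and 0.893 and 1.67 CPM (BAP1 KO). It fell in BAP1 KO, -5.76 ± 0.29 (SE, adjusted p = 1.07e-05), while its MLL4 KO value was 0.0057 ± 0.21 (SE, adjusted p = 0.989). WT, MLL4 KO and control overlapped, and BAP1 KO stood alone.

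CAV1, the coat protein of caveolae (chromosome 7, 116525009 to 116561185), stood at 328 and 208 CPM (WT), 259 and 266 CPM (MLL4 KO), 155 and 151 CPM (control) and 7.24 and 8.48 CPM (BAP1 KO), with a BAP1 KO effect of -4.28 ± 0.22 (SE, adjusted p = 1.07e-05) and a difference of 4.25 ± 0.29 (SE, adjusted p = 0.000134). Its neighbour CAV2 (chromosome 7, 116499738 to 116508541) stood at 124 and 87.9 CPM (WT), 113 and 109 CPM (MLL4 KO), 147 and 153 CPM (control) and 8.30 and 11.1 CPM (BAP1 KO), with a BAP1 KO effect of -3.95 ± 0.20 (SE, adjusted p = 1.07e-05). SYK, a tyrosine kinase best known from immune cell receptors, stood at 16.5 and 23.6 CPM (WT), 25.02 and 13.1 CPM (MLL4 KO), 24.5 and 22.3 CPM (control) and 1.47 and 1.32 CPM (BAP1 KO), with a difference of 3.99 ± 0.48 (SE, adjusted p = 0.00198). In each of the 3 genes both BAP1 KO libraries lay far below every other library.

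PCDH7, a protocadherin (chromosome 4, 30720369 to 31146800), had 1529 and 2323 counts in control and 0 in both BAP1 KO libraries. Against a floor of 3 counts per library its level was at least 590-fold lower, a bound that covers counting error only. WT stood at 81.9 and 76.1 CPM and MLL4 KO at 98.7 and 107 CPM. LCN2, a secreted iron-sequestering protein of NF-kB signalling, stood at 1.36 and 0.156 CPM (WT), 0.842 and 0.452 CPM (MLL4 KO), 152 and 146 CPM (control) and 0.383 and 0.285 CPM (BAP1 KO). Control was the only group with a level above 2 CPM, so its called fall in BAP1 KO, -8.78 ± 0.50 (SE, adjusted p = 4.9e-05), led to the level that WT and MLL4 KO already had. CR2, the complement receptor, stood at 8.76 and 7.47 CPM (WT), 7.72 and 6.72 CPM (MLL4 KO), 17.9 and 19.8 CPM (control) and 0.638 and 0.677 CPM (BAP1 KO), and SKAP2, an adaptor of Src family kinases, at 36.6 and 18.9 CPM (WT), 23.2 and 32.3 CPM (MLL4 KO), 57.4 and 58.1 CPM (control) and 2.78 and 1.82 CPM (BAP1 KO). Calls of GDA, CAV1, CAV2, SYK, PCDH7, LCN2, CR2 and SKAP2 passed without any 1 library.

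Epithelial genes fell in BAP1 KO only in part of their list. Of 40 genes of epithelial junctions and polarity, 9 had a higher difference, beside 7.74% of all tested genes, and 31 were not called. Of the 9, 7 fell in BAP1 KO only and 2 fell in both knockouts. The 9 became 14 without MLL4 KO replicate 1, 4 without WT replicate 2 or either control replicate and 5 without BAP1 KO replicate 1. CLDN7, a tight junction claudin (chromosome 17, 7259903 to 7263213), stood at 127 and 149 CPM (WT), 121 and 144 CPM (MLL4 KO), 419 and 418 CPM (control) and 78.4 and 141 CPM (BAP1 KO). Control lay above the other 6 libraries, which overlapped, and the difference was 1.87 ± 0.34 (SE, adjusted p = 0.0101). OVOL1, a zinc finger factor of epithelial identity, stood at 14.2 and 21.2 CPM (WT), 25.5 and 15.7 CPM (MLL4 KO), 25.4 and 24.2 CPM (control) and 4.18 and 5.74 CPM (BAP1 KO), with a BAP1 KO effect of -2.33 ± 0.29 (SE, adjusted p = 0.000926) and an MLL4 KO value of 0.22 ± 0.26 (SE, adjusted p = 0.582). GRHL2, a master factor of epithelial genes, fell in both knockouts, to 20.9 and 22.8 CPM from 33.9 and 38.5 CPM and to 1.28 and 2.53 CPM from 43.5 and 41.5 CPM, unequally by 3.77 ± 0.31 (SE, adjusted p = 0.000587). The MLL4 KO call of GRHL2 passed only in the fits without WT replicate 1 or either BAP1 KO replicate (largest adjusted p 0.128 of the other 5). The summed colorectal epithelial markers given above were lowest in BAP1 KO and highest in control. KRT8 and KRT18, described above, carried most of that sum, so it is not independent of their calls. The part of the markers in these results was not tested.

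Genes of laminin, hemidesmosomes and basal keratins had 8 of 17 higher and 2 lower differences, beside 7.74% and 8.32% of all tested genes. Of the 8, 5 fell in BAP1 KO only. The 8 became 5 without either control replicate. COL17A1, the collagen of hemidesmosomes, stood at 3.30 and 5.78 CPM (WT), 4.85 and 4.22 CPM (MLL4 KO), 3.68 and 3.00 CPM (control) and 0.287 and 0.356 CPM (BAP1 KO). It fell in BAP1 KO, -3.35 ± 0.47 (SE, adjusted p = 0.00149), with an MLL4 KO value of -0.016 ± 0.28 (SE, adjusted p = 0.976), and its calls passed without any 1 library.

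Among HOX genes, which set positional identity, 10 of 31 had a higher difference and 1 a lower one. Over all tested genes the shares were 7.74% and 8.32%. Of the HOX genes 9 fell in BAP1 KO only, beside 3.65% of all tested genes. The BAP1 KO effect, with or without a called difference, was called lower in 12 of the 31 and higher in 6. The 10 became 1 and 4 without BAP1 KO replicate 1 or 2, 4 without MLL4 KO replicate 2, 6 without WT replicate 2 and 2 and 1 without control replicate 1 or 2. HOXA3 stood at 11.9 and 4.59 CPM (WT), 4.10 and 6.48 CPM (MLL4 KO), 12.3 and 11.3 CPM (control) and 0.83 and 0.712 CPM (BAP1 KO), a BAP1 KO effect of -3.92 ± 0.53 (SE, adjusted p = 0.00166) that passed without any 1 library. Its difference of 3.28 ± 0.69 (SE, adjusted p = 0.0168) passed only without WT replicate 1 or 2 or MLL4 KO replicate 1 (largest adjusted p 0.0773 of the other 5), and was missed with transcript rows summed (0.075).

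Cytosolic ribosomal proteins had a median difference of 0.59, and 20 fell in BAP1 KO only. Of 77, 48 were not called and 29 had a higher difference, beside 7.74% of all tested genes. This count rested on single libraries: it was 0 without BAP1 KO replicate 1 or either control replicate, 6 without MLL4 KO replicate 2, 19 without WT replicate 2 and 44 without BAP1 KO replicate 2. With upper-quartile scaling it was 47. The list medians of 9.04 and 9.35 log2 CPM in BAP1 KO overlapped those of 9.22 and 9.33 in WT.

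Genes higher in BAP1 KO only included transporters, receptors and interferon targets. SLC16A6, of the monocarboxylate transporter family (chromosome 17, 68267026 to 68291479), stood at 6.59 and 4.94 CPM (WT), 4.89 and 5.48 CPM (MLL4 KO), 9.25 and 7.90 CPM (control) and 119 and 132 CPM (BAP1 KO). It rose in BAP1 KO, 3.88 ± 0.17 (SE, adjusted p = 6.49e-06), with an MLL4 KO value of -0.15 ± 0.19 (SE, adjusted p = 0.6). DST, dystonin, which links intermediate filaments to hemidesmosomes (chromosome 6, 56457996 to 56954830), stood at 295 and 217 CPM (WT), 234 and 332 CPM (MLL4 KO), 209 and 215 CPM (control) and 1505 and 1399.6 CPM (BAP1 KO), with a difference of -2.63 ± 0.27 (SE, adjusted p = 0.000903). In both genes the BAP1 KO libraries lay far above the other 6.

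PTGER4, a prostaglandin E2 receptor, stood at 4.07 and 3.00 CPM (WT), 3.26 and 3.19 CPM (MLL4 KO), 0.862 and 0.872 CPM (control) and 6.70 and 5.77 CPM (BAP1 KO), with a BAP1 KO effect of 2.84 ± 0.29 (SE, adjusted p = 0.000324). TCF7L2, the transcription factor that carries WNT signals with beta-catenin (chromosome 10, 112950247 to 113167678), stood at 213 and 188 CPM (WT), 235 and 250.3 CPM (MLL4 KO), 107 and 109 CPM (control) and 466 and 448 CPM (BAP1 KO). Its BAP1 KO effect was 2.08 ± 0.12 (SE, adjusted p = 1.65e-05) and its MLL4 KO value 0.27 ± 0.12 (SE, adjusted p = 0.12). OAS3, an interferon-induced sensor of double-stranded RNA (chromosome 12, 112938474 to 112973251), stood at 87.0 and 81.6 CPM (WT), 81.2 and 75.9 CPM (MLL4 KO), 38.8 and 35.0 CPM (control) and 196 and 168 CPM (BAP1 KO), with a difference of -2.41 ± 0.18 (SE, adjusted p = 0.00025). In TCF7L2 and OAS3 BAP1 KO rose past WT, which itself lay above control.

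Calls of SLC16A6, DST, PTGER4, TCF7L2 and OAS3 passed without any 1 library. Of 42 interferon-stimulated genes 11 had a lower difference and 2 a higher one, beside 8.32% and 7.74% of all tested genes. In this list 7 rose in BAP1 KO only. The 11 became 2 and 3 without control replicate 1 or 2, 4 and 3 without BAP1 KO replicate 1 or 2, and 6 and 4 without MLL4 KO replicate 1 or 2. The median over the list of control minus WT was 1.30 on the log2 scale.

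**Figure D5:**
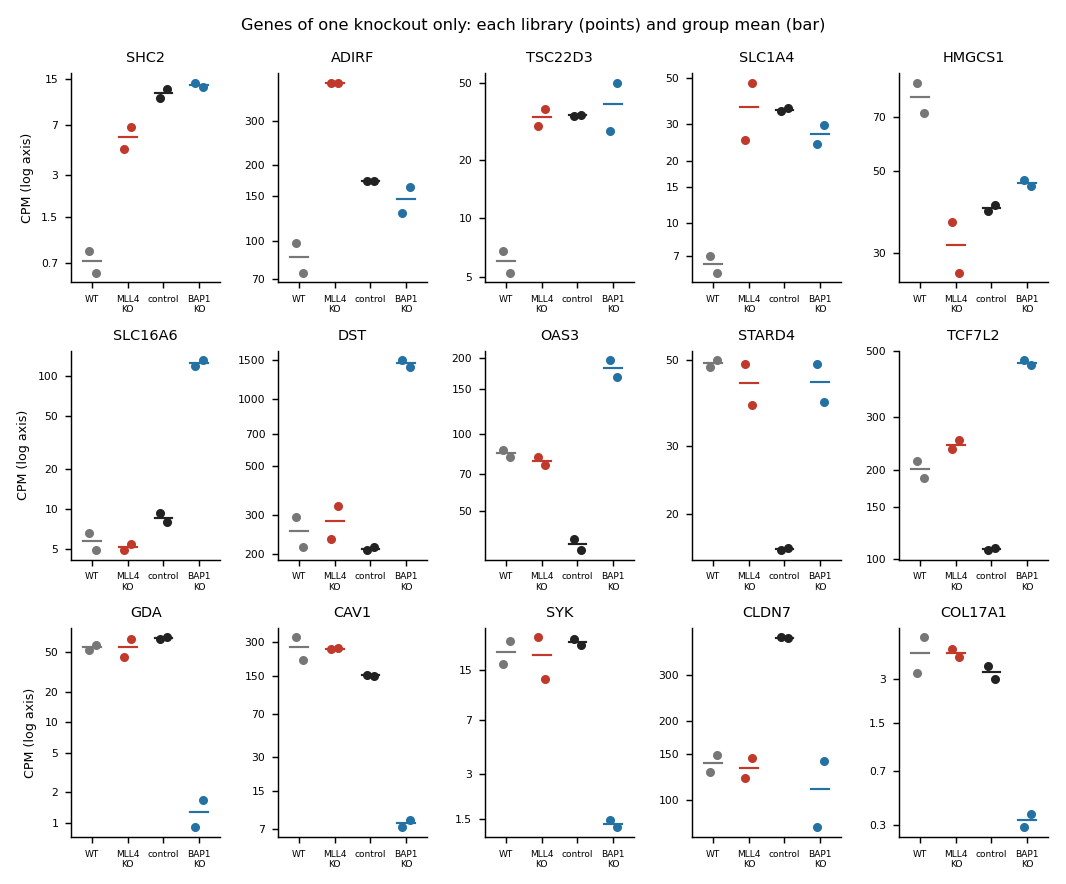
CPM on a log axis in each library (points) with the group mean (bar) for 15 genes called in 1 knockout only: MLL4 KO in the first row, BAP1 KO higher in the second and BAP1 KO lower in the third. GDA, CAV1, SYK and COL17A1 are low only in BAP1 KO, whereas WT stands apart in SHC2 and SLC1A4 and control in STARD4 and CLDN7.

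Subunits of the targeted complexes had a called difference in 3 of 20 tested genes, beside 16.1% of all tested genes. The effect called in these 3 was that of MLL4 KO. Of 10 genes of the MLL3/MLL4 complex only PAXIP1, an adaptor subunit, had a called difference. It stood at 43.6 and 44.8 CPM (WT), 32.4 and 30.9 CPM (MLL4 KO), 24.2 and 25.3 CPM (control) and 30.4 and 28.8 CPM (BAP1 KO), and its difference of -0.74 ± 0.17 (SE, adjusted p = 0.0205) passed in 4 of the 8 fits without 1 library (largest adjusted p 0.131; missed without MLL4 KO replicate 2, without control replicate 1, without control replicate 2 or without BAP1 KO replicate 1). The MLL4 KO call of PAXIP1 was missed when either control replicate, MLL4 KO replicate 2 or WT replicate 2 was left out (adjusted p = 0.0717 to 0.129). Of 10 genes of the BAP1 complex, OGT and HCFC1 had one, in opposite directions.

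OGT, the enzyme that attaches N-acetylglucosamine to nuclear proteins, stood at 163 and 135 CPM (WT), 215 and 239.7 CPM (MLL4 KO), 373 and 375 CPM (control) and 315 and 273 CPM (BAP1 KO), with a difference of 0.96 ± 0.19 (SE, adjusted p = 0.012) that was missed without control replicate 1 or without control replicate 2 (largest adjusted p 0.068). HCFC1, the host cell factor that OGT cleaves, stood at 258 and 321 CPM (WT), 184 and 161 CPM (MLL4 KO), 89.1 and 86.9 CPM (control) and 107 and 96.2 CPM (BAP1 KO), with a difference of -0.95 ± 0.20 (SE, adjusted p = 0.0135) that was missed without control replicate 1, without control replicate 2 or without BAP1 KO replicate 1 (largest adjusted p 0.0855). The MLL4 KO call of OGT was missed in the same 4 fits (adjusted p = 0.0527 to 0.094), and that of HCFC1 without MLL4 KO replicate 2 (0.0717). In both genes the MLL4 KO libraries lay between WT and the other 4.

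Of the polycomb genes, EZH2 and PHF19 are described. EZH2, the H3K27 methyltransferase, stood at 93.9 and 106 CPM (WT), 75.1 and 74.1 CPM (MLL4 KO), 42.9 and 40.3 CPM (control) and 68.6 and 63.0 CPM (BAP1 KO), and its difference of -1.08 ± 0.17 (SE, adjusted p = 0.00417) passed without any 1 library. It was called lower in MLL4 KO, -0.42 ± 0.12 (SE, adjusted p = 0.0364), and higher in BAP1 KO, 0.66 ± 0.12 (SE, adjusted p = 0.00458). The MLL4 KO call of EZH2 passed only in the fit without WT replicate 1 (largest adjusted p 0.149 of the other 7) and was missed with upper-quartile scaling (0.0592), and its BAP1 KO call was missed without control replicate 2 (0.0839). PHF19, which guides the EZH2 complex to chromatin, rose in BAP1 KO only, from 15.1 and 17.7 to 39.8 and 36.0 CPM, beside 49.1 and 67.4 CPM (WT) and 41.1 and 49.3 CPM (MLL4 KO).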

How the data were processed

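RNA-seq of HCT116 cells was analysed in 8 libraries, 2 each of WT, MLL4 KO, control and BAP1 KO, made from 1 µg of RNA after poly(A) selection, as the labels' protocols state. Each of the 8 tables that the authors deposited lists 88819 RefSeq transcript rows by read count and RPKM, per the file headers. RPKM was not used in any value printed here. Per the submitters' processing notes, the build was hg38, and bcl2fastq, STAR, Bowtie2 and SICER 1.1 were among the tools. The names of the control and BAP1 KO tables mention STAR counting over exons and those of WT and MLL4 KO do not, so the groups may have been counted differently. No source used here gives the counting tool or its use of strand. Reads of overlapping genes on opposite strands therefore cannot be told apart.

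Rows were matched to gene symbols, and the row with the highest mean count stood for each of 28101 genes. Rows without a symbol, 611 in number, were left out and held 0.233 to 0.256% of counts. After edgeR's filter on low counts 16828 genes were tested. The counts were fitted by edgeR 4.0.16 (R 4.3.3) with TMM scaling, 1 mean per group over all 8 libraries and the robust quasi-likelihood test, 2-sided. Benjamini-Hochberg adjustment ran over all tested genes with a threshold of 0.05, and every adjusted p printed without another tool's name is edgeR's. Log2 CPM used a prior count of 2. The fit was tested on simulated data.

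A gene with a called difference was opposite when both effects were called with unlike sign, and of 1 knockout when only that effect was called. Genes named from the opposite and one-knockout sets had at least 5 CPM in their highest group and libraries that did not overlap in the called comparison. They were the 8 of each opposite orientation with the largest smaller effect. From each direction of each one-knockout set came the 6 with the largest effect and under 0.25 in the other. The targeted genes and up to 4 called members of each list with the largest difference were named without these limits. Part of the named genes is described. The sets, the 32 gene lists and the tests were chosen with earlier results of these data known. Genes linked to sex were fitted but are not described. 1 further gene is not reported here. Alternatives were other scalings, filters and dispersion settings, DESeq2 1.42.0, limma-voom (limma 3.58.1), other transcript rows, a replicate term and leaving out each library.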

Additional observations from a re-analysis of the deposited data

How the results depend on the processing

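With 2 libraries per group, the counts of called genes moved with single libraries more than with any other choice. Leaving out 1 library at a time gave 680 to 4419 called differences, 530 to 5290 MLL4 KO calls and 1076 to 5010 BAP1 KO calls. Opposite genes up in MLL4 KO numbered 25 to 263 and those down in MLL4 KO 22 to 402. MLL4-only genes numbered 147 to 1790 and BAP1-only genes 367 to 1647. Of the other 12 alternatives, 1 moved one of these 7 counts by over 1.5 times: DESeq2 gave 198 opposite genes up in MLL4 KO. The 337 MLL4-only genes within 0.25 of no BAP1 KO effect became 204 with the replicate block and 510 with DESeq2. Among lists, the 29 ribosomal genes became 47 with upper-quartile scaling and 19 with no robust step, the 10 higher HOX genes 6 with the replicate block, and the 11 lower interferon-stimulated genes 7 with transcript rows summed or upper-quartile scaling. The 1 lower HOX gene was not called under 9 of the 12, and the 1 higher gene of the BAP1 complex became 2 under 5. The causes were not tested. The number of called differences ran from 2184 to 3265 over those 12. For the 140 named genes the difference kept its direction and its side of the threshold in 1641 of 1668 values under them, and in 849 of 1120 with 1 library left out, where 267 calls were lost. The difference of KMT2D, not called, ran from -0.25 to 0.27 with 1 library left out, and its sign turned without WT replicate 1 (-0.10), MLL4 KO replicate 2 (-0.25), control replicate 2 (-0.027) or BAP1 KO replicate 2 (-0.085). Replicate numbers do not pair the samples: the correlation of the replicate differences across genes was -0.14 between WT and MLL4 KO and -0.013 to 0.016 between other groups. A fit with the replicate number as a block called 2184 differences, 100 and 148 opposite genes, 506 MLL4-only and 1125 BAP1-only genes, and one with the MLL4 KO numbers crossed, added after seeing the data, called 2607 differences. Low counts limit single genes such as NUPR1.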

Other observations

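Other gene lists held smaller numbers of called differences. Of 35 p53 targets 9 had a higher difference and 1 a lower one, beside 7.74% and 8.32% of all tested genes, and 6 of them rose in MLL4 KO only. The 9 became 14 and 5 without WT replicate 1 or 2, 5 with MLL4 KO replicate 2 left out, 3 without BAP1 KO replicate 1, and 3 and 4 when control replicate 1 or 2 was left out. Of 22 NF-kB targets and cytokines 6 had a higher difference, beside 7.74% of all tested genes. In this list 5 fell in BAP1 KO only, beside 3.65% of all tested genes. The 6 became 2 without MLL4 KO replicate 2, and 2 and 3 when control replicate 1 or 2 was left out.

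The sets were also counted by chromosome. On chromosome 18, 22 of 215 tested genes (10.2%) were lower in BAP1 KO only, against 3.65% of all tested genes. The median effects on that chromosome were -0.14 in MLL4 KO and -0.11 in BAP1 KO on the log2 scale. On chromosome 13, 13 of 275 tested genes (4.73%) were lower in MLL4 KO only, against 2.02% of all. Neighbouring genes are not independent, and no test was made of these shares.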
